A study of Mus musculus with 5 samples.

Results

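The inflammatory cytokines and their secreted antagonists studied here are 9 genes of the 28692 gene identifiers in the droplet libraries: Il1a, Il1b, Il1rn, Tnf, Il6, Il10, Il18, Il18bp and Tnfsf9. They were taken by name from a list and not by their measured values, and all 9 were found under 1 identifier each. Their unique molecular identifiers (UMIs, each standing for 1 captured transcript) were summed by cell class and library. Whole kidneys of C57/BL6 mice aged 8 weeks were studied in a model where a ureter is tied off to block urine flow (unilateral ureteric obstruction, UUO) and later freed. The droplet experiment had 4 groups: sham surgery, recorded as day 0, obstruction for 2 days, obstruction for 7 days, and reversed UUO. The last group was taken 7 days after the ureter was freed, on experimental day 14. The labels name no transgene or drug, and the sham mice are the only controls. Tissue was dissociated on ice, DAPI sorting kept the live cells, and droplet 3′ libraries were made from them. A group had a single library made from 3 pooled mice, so no difference between groups could be tested, and every interval below is a 95% interval that covers counting error only.

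Interleukin 1 alpha and beta (Il1a, Il1b) signal through one receptor, and the antagonist encoded by Il1rn occupies that receptor without signalling. Il1b and Il18 are made as precursors that inflammasome-activated caspase 1 can cleave, and the secreted protein of Il18bp binds and blocks interleukin 18. Tumour necrosis factor (Tnf) and interleukin 6 (Il6) are early inflammatory cytokines, interleukin 10 (Il10) restrains myeloid activation, and Tnfsf9 encodes the ligand of the T cell co-receptor 4-1BB. In obstructed kidneys, myeloid cells are known as a main source of several of these cytokines, which act on tubule cells, endothelium and fibroblasts.

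The genes lie on several chromosomes of GRCm38, all as annotated protein-coding genes. Il1a (chr2:129299610-129309972, minus strand), Il1b (chr2:129364570-129371139, minus strand) and Il1rn (chr2:24336853-24351494, plus strand) share chromosome 2. Tnf (chr17:35199381-35202007, minus strand) and Tnfsf9 (chr17:57105325-57107757, plus strand) share chromosome 17. Il6 lies at chr5:30013114-30019981 (plus strand), Il10 at chr1:131019845-131024974 (plus strand), Il18 at chr9:50554827-50581840 (plus strand) and Il18bp at chr7:102014885-102018690 (minus strand).

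The 250 bases before the annotated start are shown for 4 genes: Il1b, which gave the most UMIs, and Il1a, Tnf and Il6, which were the 3 members at least 2-fold higher in phagocytes after reversal than at day 7 (values below). The sequences are RefSeq's, build GRCm38.p6, read 5′ to 3′ on the strand of the gene, and capitals mark motif matches.
Il1a, chr2:129309973-129310222, minus strand: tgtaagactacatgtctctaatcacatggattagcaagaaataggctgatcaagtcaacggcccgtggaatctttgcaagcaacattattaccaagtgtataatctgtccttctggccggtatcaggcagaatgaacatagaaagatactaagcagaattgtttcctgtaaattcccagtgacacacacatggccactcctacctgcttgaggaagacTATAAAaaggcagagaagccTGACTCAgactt
Il1b, chr2:129371140-129371389, minus strand: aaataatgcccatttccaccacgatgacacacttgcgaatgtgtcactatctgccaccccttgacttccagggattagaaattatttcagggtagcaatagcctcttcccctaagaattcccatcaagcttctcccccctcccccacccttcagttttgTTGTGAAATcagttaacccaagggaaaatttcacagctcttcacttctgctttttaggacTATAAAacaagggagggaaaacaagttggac
Tnf, chr17:35202008-35202257, minus strand: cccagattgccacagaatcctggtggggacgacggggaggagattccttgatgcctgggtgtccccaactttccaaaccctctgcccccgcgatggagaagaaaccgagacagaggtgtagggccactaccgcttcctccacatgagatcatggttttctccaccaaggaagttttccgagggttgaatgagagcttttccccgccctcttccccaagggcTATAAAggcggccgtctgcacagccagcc
Il6, chr5:30012864-30013113, plus strand: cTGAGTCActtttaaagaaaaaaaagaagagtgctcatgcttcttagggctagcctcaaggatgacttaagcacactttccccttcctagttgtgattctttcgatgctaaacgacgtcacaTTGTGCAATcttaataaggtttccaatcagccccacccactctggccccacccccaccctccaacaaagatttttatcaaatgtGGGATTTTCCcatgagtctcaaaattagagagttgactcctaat

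Promoter windows of 300 bases (250 before and 50 after the start) were held for 7 of the 9 members, and Il10 and Tnfsf9 had no entry. Both strands were searched for the NF-kB consensus, the TATA box TATAAA, the AP-1 site TGANTCA, the CRE TGACGTCA (cyclic AMP response element), the C/EBP site TTNNGNAAT, the core of the interferon-stimulated response element and the PU.1 site GAGGAAGT. A TATA box began 32 bases before the start of Il1a, 31 before that of Il1b and 29 before that of Tnf, and 13.6% of all 32851 windows held one. The Il6 window held the NF-kB consensus 44 bases, a C/EBP match 128 bases and an AP-1 match 249 bases before the start. Il1b also held a C/EBP match at 91 bases, and Il1a an AP-1 match at 12 bases. The Il18 window held TATAAA only on the strand opposite to the gene, 175 bases before the start. Of the 3 Il1rn windows, 1 held an AP-1 match 141 bases before its start and 1 a C/EBP match at base 16 after it. The other held a C/EBP match 64 bases before its start and, on the opposite strand, TATAAA at base 14 after it. The Il18bp window held no match. The shares of all windows with a match were 8.46% for NF-kB, 11.5% for C/EBP, 7.81% for AP-1, 1.79% for the CRE, 3.44% for the interferon core and 3.2% for PU.1. No 2 matches overlapped in the printed windows. A match describes the letters in the window, and the absence of one says only that these letters are not there.

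Cells were assigned to classes by the share of listed marker genes with a UMI, so a class name means that a cell passed that marker gate. Of 5938 sham, 2739 day 2, 4504 day 7 and 3695 reversed cells, 3933, 2207, 4447 and 3236 passed the filters on gene number and mitochondrial share. Library totals ranged from 18649637 to 30462683 UMIs, and median UMIs per cell from 2480.5 in sham to 5668 at day 7. The median mitochondrial share was 40.6% in sham, 16.2% at day 2, 3.00% at day 7 and 14.0% after reversal. Pairs of libraries shared 16 to 39 cell barcodes. Cells with markers of several lineages, left out as mixed, were 0.280%, 1.45%, 6.18% and 2.60% of the kept cells in that order of groups. Mononuclear phagocytes (macrophages, monocytes and dendritic cells) numbered 65, 552, 2480 and 654, and their median UMIs were 3284, 10066.5, 6547 and 6848.5. All 10 macrophage markers were detected in the phagocytes of each library, at a summed 8501 to 14993 CPM (the UMIs of a gene or list divided by the summed UMIs of the class or library, on the usual CPM scale). Markers listed for other classes were also detected in phagocytes, and how far they are RNA of other cells was not tested. Proximal tubule markers (10 of 10 detected in each library) summed to 824 CPM in sham phagocytes, 113 at day 2, 97.7 at day 7 and 390 after reversal. Neutrophil markers summed to 15.8 CPM in sham phagocytes, where S100a8 and S100a9 were at 0 and 2 of the 8 were detected, and to 263, 306 and 143 CPM in the other libraries with 8 of 8 detected. Marker lists of 3 other classes were higher in phagocytes at day 7 and after reversal than at day 2. Endothelial markers (5 of 9 detected in sham, else 9 of 9) summed to 35.5, 48.9, 157 and 134 CPM in the order of groups. Fibroblast or mural markers (3, 7, 8 and 8 of 8) summed to 11.8, 25.7, 201 and 182 CPM, with Col1a1, Col1a2, Col3a1, Pdgfra and Lum at 0 in sham and Pdgfra at 0 at day 2. T cell markers (4 of 8 in sham, else 8 of 8) summed to 27.6, 16.1, 74.1 and 62.0 CPM, with Cd3e, Cd3d, Lck and Cd5 at 0 in sham. The part of these differences in the results below was not tested.

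Il1b was the member with the most UMIs, 18738 over the 4 libraries, and its level in phagocytes was higher in each obstructed or reversed library than in sham. Sham had no gated neutrophils, and its 17 T cells and 2 fibroblasts or mural cells held 0 Il1b UMIs, too few cells for a fold in those classes. The whole libraries held 65 Il1b UMIs in sham, 3684 at day 2, 10752 at day 7 and 4237 after reversal, or 3.49, 187, 353 and 185 CPM of the library. In such a sum over all cells, fewer cells of a type and less RNA per cell cannot be told apart. Phagocytes were 1.65% of the kept sham cells, 25.0% at day 2, 55.8% at day 7 and 20.2% after reversal, and they held 69.2%, 76.4%, 76.5% and 75.01% of the Il1b UMIs of their library.

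Within phagocytes, Il1b stood at 177 CPM in sham (45 UMIs, interval 129 to 237), 455 at day 2 (2816 UMIs, 438 to 472), 468 at day 7 (8223 UMIs, 458 to 478) and 615 after reversal (3178 UMIs, 594 to 637). Sham was lowest and reversed UUO highest, and the intervals of day 2 and day 7 overlapped. The ratio of day 2 to sham was 2.56 (1.91 to 3.52), that of day 7 to day 2 was 1.03 (0.986 to 1.07), and that of reversed to day 7 was 1.31 (1.26 to 1.37). The whole-library ratio of reversed to day 7 was on the other side of 1, at 0.523 (0.505 to 0.542). Il1b was thus lower per library and higher per phagocyte UMI after reversal. The sham value rests on 65 cells, and in macrophage-gated cells alone the ratio of day 2 to sham was 1.71 (1.15 to 2.68).

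The share of phagocytes with an Il1b UMI was 30.8% in sham, 61.4% at day 2, 58.7% at day 7 and 54.7% after reversal. With each cell thinned to 1000 UMIs, which no phagocyte fell below, the shares were 16.9%, 24.3%, 24.7% and 28.3%. Endothelium, taken as a class that should lack the gene, had shares of 0 of 222 cells in sham (allowing up to 1.35%), 13.7%, 21.9% and 11.7% at median depths of 2361, 3716, 3473 and 3860 UMIs. Its thinned shares were 0%, 3.11%, 4.63% and 3.11%. Phagocytes were above this level in each library at both depths. A few phagocytes held much of the transcript: the 10% of phagocytes with most Il1b held 63.8% of its phagocyte UMIs at day 2, 64.0% at day 7 and 65.1% after reversal.

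**Figure D1:**
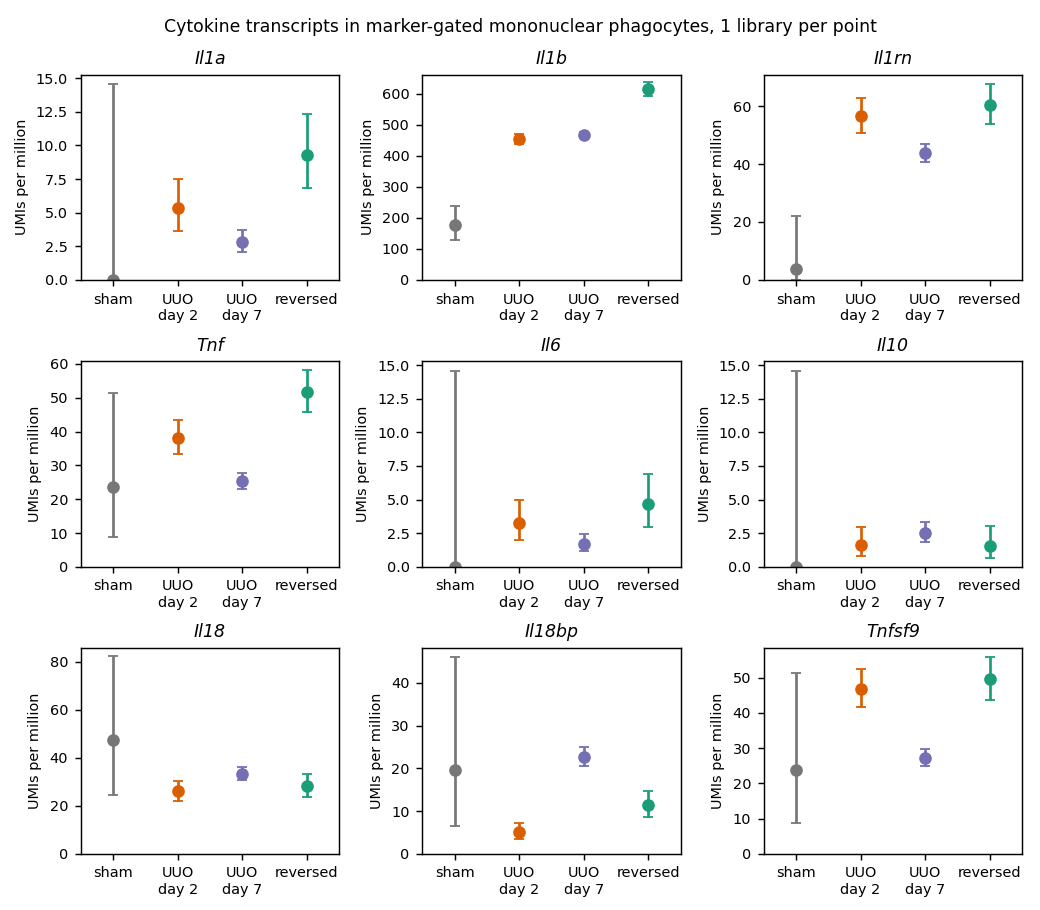
Level of each gene in marker-gated mononuclear phagocytes, in CPM, for the 4 libraries; points are 1 library each and bars are exact Poisson 95% intervals of the count. Il1b stands at 177, 455, 468 and 615 in the order sham, day 2, day 7 and reversed, and Il18bp is lowest at day 2 (5.01).

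Neutrophils, gated in 15 cells at day 2, 33 at day 7 and 13 after reversal and in none of the sham cells, had the highest Il1b level of the classes in those libraries. Their Il1b level was 5750 CPM at day 2, 10037 at day 7 and 9931 after reversal. These levels were 12.6-fold (11.2 to 14.2), 21.4-fold (20.1 to 22.8) and 16.1-fold (14.6 to 17.8) those of phagocytes in the same library. The transcript was found in 14 of 15, 33 of 33 and 12 of 13 neutrophils. They held 8.63%, 10.5% and 11.3% of the Il1b UMIs of their libraries. Neutrophils were shallow, with medians of 3477, 2681 and 2807 UMIs. Free RNA, estimated from tubule markers, came to 26.1%, 92.3% and 15.0% of neutrophil UMIs in the 3 libraries. The day 7 value cannot be taken as an estimate for the class, since 107 of its 140 tubule marker UMIs were in 1 of the 33 cells. The whole day 7 library held Il1b at 353 CPM.

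Among phagocyte subclasses, type 2 conventional dendritic cells (cDC2, gated on markers such as Cd209a and Clec10a) had more Il1b than macrophage-gated cells in the 3 injured libraries. Their levels were 595, 774 and 1090 CPM at day 2, day 7 and after reversal (82, 261 and 83 cells), against 397, 438 and 654 in macrophage-gated cells (327, 1934 and 455 cells). The ratios were 1.50 (1.36 to 1.65), 1.77 (1.67 to 1.86) and 1.67 (1.54 to 1.81). Sham showed no such order, at 221 CPM in 16 cDC2 and 232 CPM in 34 macrophage-gated cells (ratio 0.951, 0.493 to 1.81). Ly6c2-high monocytes stood at 715 CPM at day 2 (98 cells), 914 at day 7 (88 cells) and 466 after reversal (18 cells), so they were above macrophage-gated cells under obstruction and below them after reversal. Type 1 conventional dendritic cells (cDC1) were the lowest of these 4 subclasses in each of the 3 libraries, at 166, 98.3 and 116 CPM. At day 2 there were 22 cDC1, and 38 of their 49 Il1b UMIs were in 1 cell. Ace-positive monocytes, with 14, 16 and 12 cells, stood at 529 (35 UMIs, 368 to 736), 1309 (85 UMIs, 1046 to 1619) and 813 CPM (56 UMIs, 614 to 1055), so at day 7 this small subclass was the highest. Ccr7-positive dendritic cells, with 60 cells at day 7, stood at 213 CPM there.

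**Figure D2:**
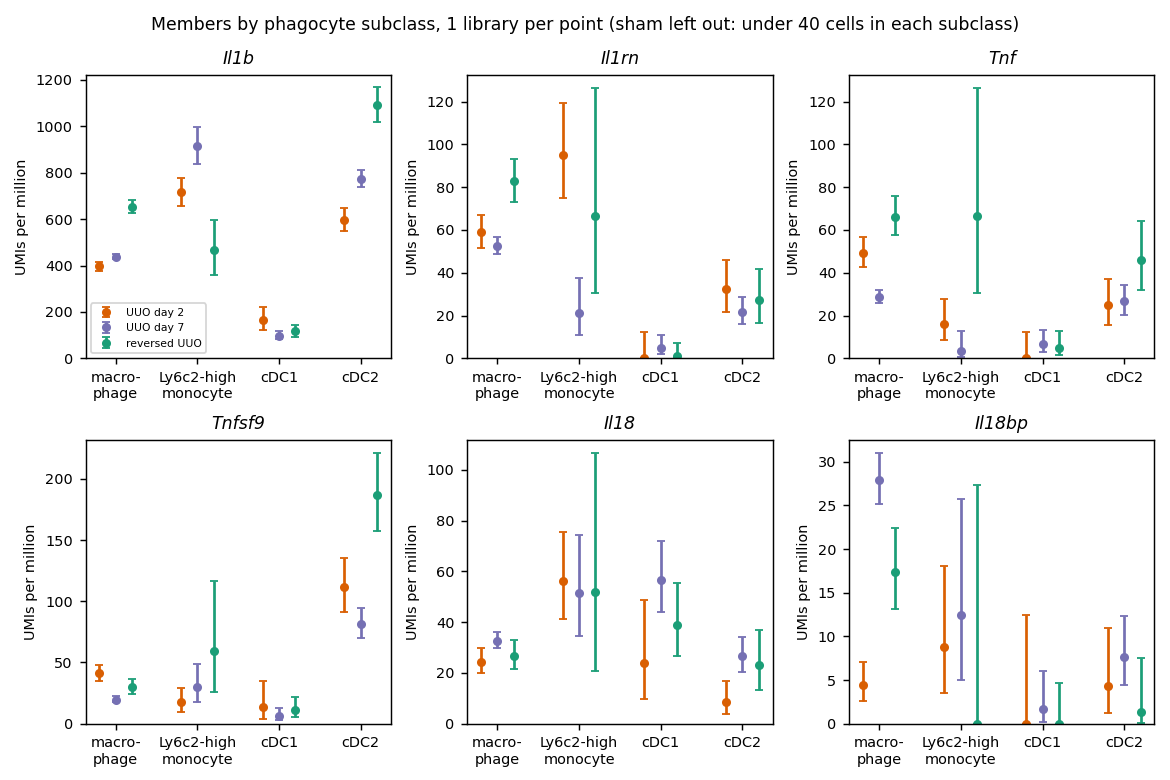
Level of 6 members in 4 phagocyte subclasses, in CPM, at day 2, day 7 and after reversal; points are 1 library each and bars are exact Poisson 95% intervals. Tnfsf9 is highest in cDC2 in each library (112, 81.6 and 187) and at day 7 Il18bp is highest, of the 4 drawn, in macrophage-gated cells (27.9).

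Il1a, the other interleukin 1 agonist, was sparse and held by few cells. Phagocytes had 0 UMIs in sham, 33 at day 2 (5.33 CPM), 49 at day 7 (2.79 CPM) and 48 after reversal (9.29 CPM). The count of 0 in sham allows up to 11.8 CPM, so no fold against sham can be given. The reversed library was highest, 3.33-fold (2.19 to 5.07) above day 7, and day 7 was 0.523-fold (0.330 to 0.840) of day 2. The UMIs lay in 12 phagocytes at day 2, 24 at day 7 and 25 after reversal, and 1 cell held 27.3%, 32.7% and 25.0% of them. Of these Il1a-positive cells, 11 of 12, 20 of 24 and 19 of 25 also had Il1b, against 61.4%, 58.7% and 54.7% of all phagocytes. The cells with both were deeper than phagocytes as a whole, with medians of 14509, 11226.5 and 11043 UMIs. Outside phagocytes, 3 of the 13 reversed neutrophils held 9 Il1a UMIs (186 CPM), and the only 2 Il1a UMIs of the sham library were in endothelium.

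Il1rn, the receptor antagonist, was nearly absent from sham and present in the other libraries. The sham library held 1 UMI, in a phagocyte, and phagocytes had 350 UMIs at day 2 (56.5 CPM, 50.8 to 62.8), 767 at day 7 (43.7 CPM, 40.6 to 46.9) and 312 after reversal (60.4 CPM, 53.9 to 67.5). The intervals of day 2 and reversed UUO overlapped, and day 7 lay below both. The ratio of day 2 to sham was 14.3, with an interval from 2.56 to 568 because of the single sham UMI. With cells thinned to 1000 UMIs sham phagocytes had 0, and the bound on that ratio was 0.14 on the log2 scale, against 3.84 with all UMIs, so its size cannot be given at equal depth. Day 7 to day 2 was 0.772 (0.680 to 0.879), and reversed to day 7 was 1.38 (1.21 to 1.58). Il1rn was counted in 21.7% of day 2 phagocytes, 14.3% at day 7 and 15.3% after reversal, and in 3.99%, 3.35% and 4.74% after thinning.

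For Il1rn the order of macrophage-gated cells and cDC2 was the reverse of that for Il1b. Macrophage-gated cells stood at 59.1, 52.7 and 82.7 CPM, and cDC2, the higher of the pair for Il1b, stood at 32.2, 21.7 and 27.1 CPM. The ratio of cDC2 to macrophage-gated cells was 0.546 (0.360 to 0.8001), 0.411 (0.300 to 0.550) and 0.328 (0.197 to 0.517). Ly6c2-high monocytes had 95.2 CPM at day 2 and 21.4 at day 7, a ratio of 0.225 (0.111 to 0.415), while their Il1b was 1.28-fold (1.13 to 1.44) higher at day 7. After reversal the 18 Ly6c2-high monocytes stood at 66.6 CPM of Il1rn (9 UMIs, 30.4 to 126). Neutrophils stood at 506, 472 and 1428 CPM of Il1rn, 8.96-fold, 10.8-fold and 23.6-fold the phagocyte level.

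Il1rn and Il1b were often found in the same phagocytes. Of Il1rn-positive phagocytes, 75.8% at day 2, 75.7% at day 7 and 72.0% after reversal had an Il1b UMI. The corresponding shares of all phagocytes were 61.4%, 58.7% and 54.7%, and cells with both had medians of 11147, 8336.5 and 8670.5 UMIs. Il1rn made up 2.17% of the summed Il1rn and Il1b UMIs of phagocytes in sham (0.0550 to 11.5%), 11.1% at day 2 (9.98 to 12.2%), 8.53% at day 7 (7.96 to 9.13%) and 8.94% after reversal (8.01 to 9.94%). This share is read across classes and libraries and not as a comparison of the levels of the genes.

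Tubule epithelium of no stated segment, cells with general tubule markers but no clear segment, had the largest Il1rn share among the gated classes with at least 30 UMIs of the pair, level with loop of Henle at day 7 (30.6%, with 13 of its 19 Il1rn UMIs in 1 cell). Its share was 47.2% at day 2 (37.4 to 57.1%), 30.8% at day 7 (23.5 to 39.0%) and 27.7% after reversal (15.6 to 42.6%). At day 2, 4 of the 250 cells held 30 of the 50 Il1rn UMIs, 14 of them in 1 cell, and without those 4 cells the share was 27.4% (17.6 to 39.1%). Without cells that held 4 or more Il1rn UMIs it was 25.4% at day 7 (18.3 to 33.6%) and 19.0% after reversal (8.60 to 34.1%). The last interval held the reversed shares of phagocytes (8.94%), proximal tubule (14.9%) and loop of Henle (17.1%), so the order of classes is not secure there. Its Il1rn level was 19.3, 20.02 and 6.85 CPM (50, 45 and 13 UMIs), and 0 UMIs were found in the 44 sham cells of this class. Most of these UMIs were in cells that also held Il1f6, which encodes the epithelial interleukin 36 alpha: 44 of 50, 33 of 45 and 11 of 13. Il1f6-positive cells were 48 of 250, 45 of 252 and 27 of 196 cells of the class. The look at Il1f6 was chosen after these values had been seen. The Il1b of the class stood at 21.6, 44.9 and 17.9 CPM, near that of proximal tubule (35.3, 58.1 and 20.7 CPM). After reversal 1 cell that passed no gate held 55 of the 544 Il1rn UMIs of the library, with 42 UMIs of S100a8 and 15 of S100a9.

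**Figure D3:**
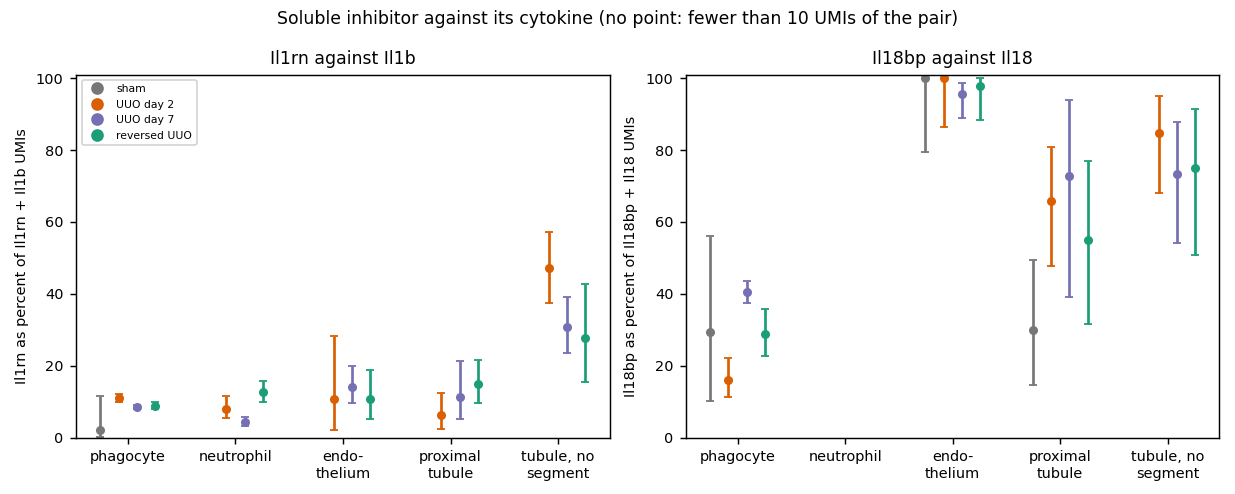
Il1rn as a percentage of Il1rn and Il1b UMIs (left) and Il18bp as a percentage of Il18bp and Il18 UMIs (right), by class and library; bars are exact Clopper-Pearson 95% intervals, and pairs with fewer than 10 UMIs are not drawn. Tubule epithelium of no stated segment has left-hand shares of 47.2, 30.8 and 27.7%, against 11.1, 8.53 and 8.94% in phagocytes, and endothelium is at 95.5% or above on the right in each library.

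Tnf in phagocytes was 23.7 CPM in sham (6 UMIs, 8.68 to 51.5), 38.1 at day 2 (236 UMIs, 33.4 to 43.3), 25.4 at day 7 (446 UMIs, 23.1 to 27.9) and 51.7 after reversal (267 UMIs, 45.7 to 58.3). Day 7 was the lowest of the 3 injured libraries and reversed UUO the highest, and the sham interval overlapped all 3. Day 7 to day 2 was 0.666 (0.568 to 0.783), and reversed to day 7 was 2.04 (1.74 to 2.38). With each cell thinned to 1000 UMIs the log2 ratio was 0.28, against 1.03 with all UMIs, and the share of phagocytes with Tnf was 4.89% at day 2, 2.74% at day 7 and 3.36% after reversal. Macrophage-gated cells stood at 49.4, 28.7 and 66.3 CPM and cDC2 at 24.7, 26.6 and 46.1 CPM. Tnf was a member that lymphocytes also held: T cells stood at 25.9, 26.5 and 42.3 CPM, and their ratios to phagocytes of 0.678 (0.346 to 1.21), 1.04 (0.717 to 1.47) and 0.818 had intervals that spanned 1. In sham, 5 Tnf UMIs in 17 T cells gave 126 CPM.

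Il6 was rare. Phagocytes had 0 UMIs in sham, 20 at day 2 (3.23 CPM), 30 at day 7 (1.71 CPM) and 24 after reversal (4.65 CPM), and the ratio of reversed to day 7 was 2.72 (1.52 to 4.81). The highest phagocyte held 10 of the 24 reversed UMIs and 8 of the 30 at day 7, and without that reversed cell the ratio was 1.59 (0.778 to 3.09). Fibroblasts or mural cells had the highest Il6 level of the classes of at least 30 cells at day 7 (14.8 CPM, 13 UMIs) and after reversal (28.3 CPM, 16 UMIs). Those sums came largely from 1 cell in each library, with 9 and 15 UMIs. In endothelium at day 7, 11 UMIs lay in 8 of 497 cells (5.01 CPM). The 4 libraries together gave 130 Il6 UMIs, so its values rest on few counts.

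Il10, which restrains myeloid activation, gave 67 UMIs over the 4 libraries. Phagocytes had 10 UMIs at day 2 (1.61 CPM), 44 at day 7 (2.50 CPM) and 8 after reversal (1.55 CPM), and the sham library had 0. Macrophage-gated cells held 10, 42 and 8 of these. The ratios of day 7 to day 2 (1.55, 0.769 to 3.46) and of reversed to day 7 (0.618, 0.251 to 1.33) had intervals that spanned 1. Without the reversed phagocyte that held 3 of the 8 UMIs, the ratio of reversed to day 7 was 0.387 (0.120 to 0.972). Without the day 7 phagocyte that held 8 of the 44, that ratio was 0.756 (0.304 to 1.65).

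Il18 in pooled phagocytes differed by less than 2-fold between groups, while its whole-library level did not. Phagocytes stood at 47.3 CPM in sham (12 UMIs, 24.4 to 82.6), 26.0 at day 2 (161 UMIs, 22.1 to 30.3), 33.4 at day 7 (587 UMIs, 30.8 to 36.2) and 28.1 after reversal (145 UMIs, 23.7 to 33.0). Sham was the highest value with the widest interval. Over whole libraries Il18 stood at 2.09, 10.1, 20.9 and 8.37 CPM, with ratios of 2.07 (1.76 to 2.44) for day 7 to day 2 and 0.400 (0.339 to 0.471) for reversed to day 7. Its UMIs were spread thinly, with at most 6 in a phagocyte and a mean of 1.33, 1.28 and 1.28 per positive cell in the injured libraries. Of the 4 subclasses drawn in the plot, Ly6c2-high monocytes stood at 56.4, 51.7 and 51.8 CPM and cDC1 at 23.7, 56.6 and 39.0 CPM. Macrophage-gated cells stood at 24.5, 32.7 and 26.8 CPM, and cDC2 was the lowest of the 4, at 8.60, 26.6 and 23.0 CPM. From day 2 to day 7 the ratio was 3.10 (1.47 to 7.50) in cDC2 and 2.39 (1.10 to 6.16) in cDC1. Ccr7-positive dendritic cells, outside these 4, held 0, 5 and 1 Il18 UMIs, or 10.1 CPM at day 7. At day 7 cDC1, the lowest of the 4 for Il1b, had the highest Il18 value, with Ly6c2-high monocytes close to it.

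Il18bp, the binding protein, was lowest in phagocytes at day 2 and was also held by endothelium. Phagocytes stood at 19.7 CPM in sham (5 UMIs, 6.40 to 46.0), 5.01 at day 2 (31 UMIs, 3.40 to 7.11), 22.8 at day 7 (400 UMIs, 20.6 to 25.1) and 11.4 after reversal (59 UMIs, 8.70 to 14.7). Day 2 was the lowest library, and its interval overlapped that of sham. The ratio of day 2 to sham was 0.254 (0.0979 to 0.837), that of day 7 to day 2 was 4.55 (3.15 to 6.78) and that of reversed to day 7 was 0.502 (0.375 to 0.661). A single sham phagocyte held 2 of the 5 sham UMIs. Without that cell the ratio of day 2 to sham was 0.423 (0.132 to 2.16), and its interval spanned 1. Endothelial markers in phagocytes summed to 48.9 CPM at day 2, 157 at day 7 and 134 after reversal, while endothelium itself held Il18bp at 23.3 to 38.7 CPM in those libraries. The part of endothelial RNA in these ratios was not tested. After thinning, the log2 ratio of reversed to day 7 was −1.88 against −0.99, and in macrophage-gated cells alone that of day 2 to sham was −3.44 against −1.98. Macrophage-gated cells held 361 of the 400 day 7 UMIs. They stood at 4.45, 27.9 and 17.3 CPM in the injured libraries, with a day 7 to day 2 ratio of 6.28 (3.92 to 10.7). In cDC2 the levels were 4.30, 7.67 and 1.36 CPM.

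Endothelium held Il18bp in each library, with almost no Il18. It had 16 Il18bp UMIs in sham (26.4 CPM), 25 at day 2 (31.9 CPM), 85 at day 7 (38.7 CPM) and 45 after reversal (23.3 CPM), against 0, 0, 4 and 1 of Il18. The interval of the ratio spanned 1 for day 2 to sham (1.21, 0.622 to 2.43), while reversed to day 7 was 0.602 (0.410 to 0.874). In proximal tubule the level was 0.929 CPM in sham (9 UMIs in 2796 cells), 7.74 at day 2 (23 UMIs), 7.50 at day 7 (8 UMIs) and 1.80 after reversal (11 UMIs), with a day 2 to sham ratio of 8.32 (3.71 to 20.4). Proximal tubule was above its sham level and phagocytes were below theirs at day 2, and the difference between the classes was not tested. Il18bp made up 29.4% of the Il18bp and Il18 UMIs of phagocytes in sham, 16.1% at day 2, 40.5% at day 7 and 28.9% after reversal, and between 95.5% and 100% of those of endothelium.

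Tnfsf9, the 4-1BB ligand, was in the injured libraries highest in phagocytes among classes of at least 30 cells, and within them in cDC2. In sham, phagocytes held 6 of the 13 Tnfsf9 UMIs and principal cells stood at 14.3 CPM (5 UMIs, 4.64 to 33.4), inside the phagocyte interval. Phagocytes stood at 23.7 CPM in sham (6 UMIs, 8.68 to 51.5), 46.8 at day 2 (290 UMIs, 41.6 to 52.5), 27.3 at day 7 (480 UMIs, 24.9 to 29.9) and 49.6 after reversal (256 UMIs, 43.7 to 56.0). As with Tnf, day 7 was the lowest of the injured libraries, with ratios of 0.583 (0.503 to 0.677) to day 2 and 1.81 (1.55 to 2.12) for reversed to day 7. The log2 ratio of day 7 to day 2 was −0.78 with all UMIs and −1.08 after thinning, past the 2-fold limit. The cDC2 level was 112, 81.6 and 187 CPM against 41.3, 19.7 and 29.8 CPM in macrophage-gated cells. These are ratios of 2.71 (2.10 to 3.48), 4.14 (3.40 to 5.03) and 6.28 (4.81 to 8.22). After reversal 1 phagocyte held 32 of the 256 Tnfsf9 UMIs. Its receptor gene, Tnfrsf9, was found in lymphocytes: T cells stood at 146, 72.6 and 135 CPM, and 24 day 2 and 50 day 7 natural killer cells at 252 and 170 CPM.

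**Figure D4:**
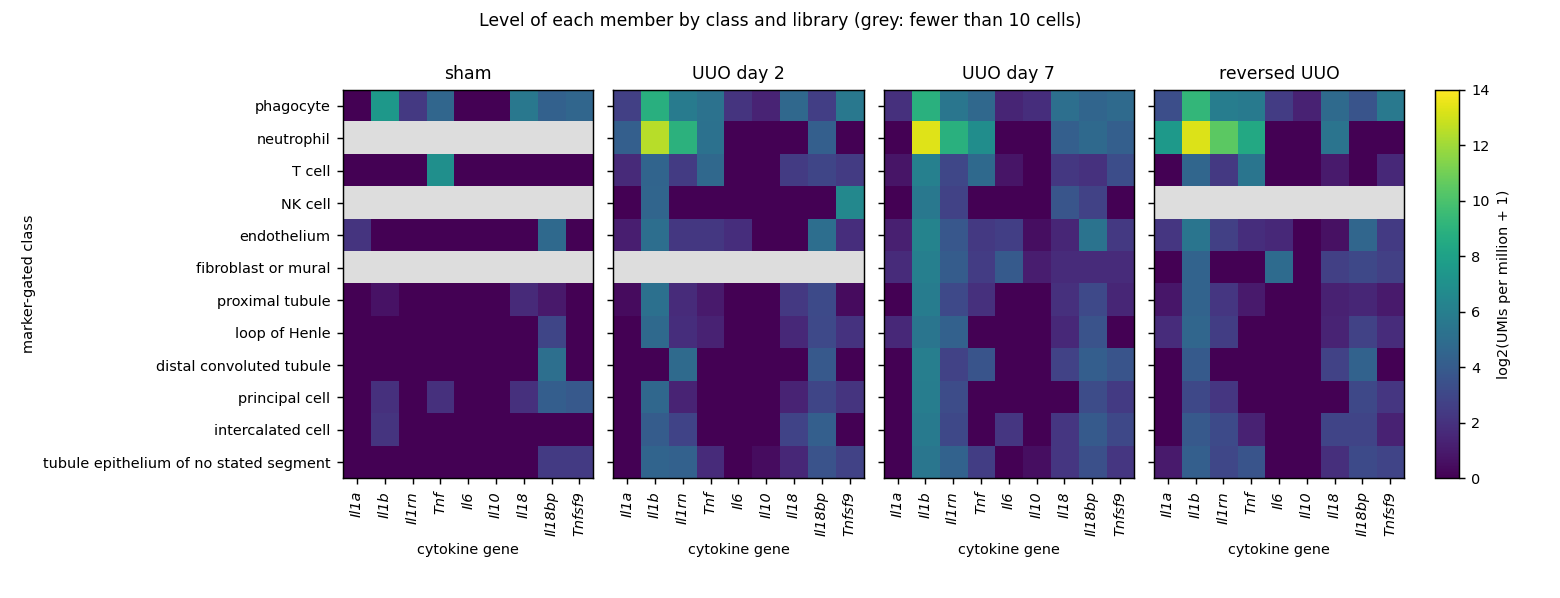
Level of each of the 9 genes (columns) by marker-gated class (rows) in the 4 libraries, coloured by log2 of CPM plus 1; grey rows have fewer than 10 cells. Neutrophils are brightest for Il1b (10037 CPM at day 7), and endothelium holds Il18bp in each library (26.4, 31.9, 38.7 and 23.3).

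Read together against the other genes of phagocytes, the members were called by a fold of at least 2 among genes with at least 30 summed UMIs. From sham to day 2, 2 of the 7 members with enough UMIs were higher (Il1b, Il1rn) and 1 was lower (Il18bp), while 13.2% of all 9140 genes were higher and 9.05% lower. From day 2 to day 7, 1 of 9 was higher (Il18bp) and 0 were lower, against 13% and 3.38% of 12018 genes. From day 7 to reversed UUO, 3 of 9 were higher (Il1a, Tnf, Il6) and 0 lower, against 3.63% and 1.72% of 12153 genes. With library scaling by TMM factors (1.015 for day 7 and 1.036 for reversed UUO), Tnf fell just under the 2-fold limit. From sham to reversed UUO, 4 of 7 were higher (Il1b, Il1rn, Tnf, Tnfsf9) and 0 lower, against 13.7% and 5.13% of 9394 genes, although the intervals of Tnf (0.991 to 6.01) and Tnfsf9 (0.950 to 5.76) reached below 1. With a minimum of 1 UMI in place of 30, 7.87% of all genes were higher and 14.0% lower for day 2 over sham. The shares were then 13.2% and 5.52% for day 7 over day 2 and 10.1% and 2.84% for reversed over day 7. For reversed over sham they were 7.97% and 8.27%. With each cell thinned to 1000 UMIs, few UMIs were left for several members, and only those with at least 30 after thinning are given here. The shares of all genes above are for unthinned sums, so the thinned counts are not read against them. Il1b was then higher at day 2 than in sham (2.22, 1.35 to 3.94) and higher in reversed UUO than in sham (2.81, 1.71 to 4.97). From day 2 to day 7, Il18bp was higher (3.12, 1.15 to 11.8) and Tnfsf9 lower (0.472, 0.288 to 0.792). From day 7 to reversed UUO, 0 of these members were at least 2-fold higher and Il18bp was lower (0.271, 0.0713 to 0.733). Thinned Tnf was 1.21 (0.733 to 1.94) there, while Il1a had 8 and 6 UMIs left and Il6 had 4 and 4, too few for a call. Leaving out the reversed phagocyte with most UMIs of each member left Il1a (2.50, 1.58 to 3.92) as the 1 higher member against day 7, with Tnf at 1.88 (1.60 to 2.20) and Il6 at 1.59 (0.778 to 3.09). Against sham, the same step took Tnfsf9 to 1.83 (0.829 to 5.05), under the 2-fold limit. Tnf was then 2.01 (0.912 to 5.54). In macrophage-gated cells alone, Il1b at day 2 was 1.71 times its sham level (1.15 to 2.68) and did not reach 2-fold. There Il1rn, with 0 UMIs in sham, Tnf (2.56, 0.698 to 21.3) and Tnfsf9 (2.13, 0.582 to 17.8) were the 3 higher members at day 2. Against sham, reversed UUO then had 3 higher, without Tnfsf9 (1.54, 0.415 to 12.9), and 1 lower (Il18bp). The shares of all genes above are for pooled phagocytes, so the counts in macrophage-gated cells are not read against them. Sham phagocytes had a median of 3284 UMIs, against 10066.5 at day 2 and 6848.5 after reversal. The members' median log2 ratios were 0.69, −0.37, 0.47 and 1.07 in that order, against 0.07, 0.10, −0.01 and 0.06 over all genes tested. In these medians and those of the lists below, a gene with 0 UMIs in 1 library and a level at or under the floor of 3 counts in the other counts as log2 0. Without such genes the members' medians against sham were 0.84 at day 2 and 1.10 after reversal, and those of all genes 0.12 and 0.11. The comparisons share libraries, so they are not independent of each other.

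Summed over whole libraries the members stood differently. From sham to day 2, 7 of 7 members with enough UMIs were at least 2-fold higher, against 33.2% of 13591 genes higher and 6.25% lower. From day 2 to day 7, Il10, Il18 and Il18bp were higher of 9 and 0 were lower, against 12.2% and 5.73% of genes. From day 7 to reversed UUO, 0 were higher and the same 3 genes were lower, against 8.47% and 6.52%. From sham to reversed UUO, 8 of 8 were higher, against 40.1% higher and 2.52% lower. Il1a was the exception in direction after reversal, with a library ratio of 1.83 (1.30 to 2.59) to day 7, and Il6 stood at 1.04.

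Across classes of at least 30 cells, phagocytes had the highest level of 5 members in sham, 8 at day 2, 4 at day 7 and 7 after reversal. The share of all genes that were highest in phagocytes was not computed, so these counts are not read as particular to the members. The sham count includes Il1rn from 1 UMI and Tnf from 6 UMIs, and the 17 sham T cells, at 126 CPM of Tnf, were too few to be ranked. At day 7 neutrophils passed the limit of 30 cells and were highest for Il1b, Il1rn and Tnf. They were too few to be ranked in the other libraries. Endothelium was highest for Il18bp in the 3 injured libraries, and distal convoluted tubule in sham (34.0 CPM from 5 UMIs). After reversal distal convoluted tubule was close to endothelium, at 20.2 against 23.3 CPM. With the neutrophils of all 3 injured libraries set beside phagocytes, Il1b and Il1rn were higher in neutrophils in each, while Tnf was higher at day 7 (4.56-fold, 2.41 to 7.88) and after reversal (6.80-fold, 3.90 to 11.1) and not at day 2 (0.949, 0.114 to 3.47).

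Of the 13 receptor and coreceptor genes, 0 of 10 with enough UMIs were at least 2-fold higher in phagocytes at day 2 than in sham and 2 were lower, Il10ra (0.386, 0.257 to 0.603) and Il18rap (0.440, 0.160 to 1.69), against 13.2% of all genes higher and 9.05% lower. At day 7 against day 2, 2 of 12 were higher, Il18r1 (5.17, 1.66 to 26.0) and Tnfrsf9 (2.66, 1.41 to 5.53), and 0 lower, against 13% and 3.38%. Both genes stood higher in T cells than in phagocytes, and T cell markers in phagocytes summed to 16.1 CPM at day 2 and 74.1 at day 7. Their part in these ratios was not tested. Il18rap was the only 1 of 13 lower after reversal than at day 7, with 0 higher, against 3.63% higher and 1.72% lower. None of 8 passed the fold between sham and reversed UUO, against 13.7% and 5.13%. The list medians were −0.44, 0.33, −0.13 and −0.15 on the log2 scale, and without the 1 gene at the floor those against sham were −0.45 and −0.24. The receptors lay in different classes. Il1r1, the signalling receptor of interleukin 1, stood at 102 and 54.9 CPM in fibroblasts or mural cells at day 7 and after reversal, and at 44.3, 59.0 and 51.3 CPM in principal cells of the collecting duct, but at 1.48 CPM in day 7 phagocytes. Il1r2, the decoy receptor, stood at 380, 623 and 497 CPM in neutrophils and 18.2, 14.0 and 9.49 CPM in phagocytes. Il18r1 stood at 53.9, 87.8 and 86.6 CPM in T cells.

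Of the 8 genes for processing and release of these cytokines, 1 was higher at day 2 than in sham (Gsdmd, the pore protein gasdermin D, 2.31, 1.11 to 5.79), and 0 were lower, against 13.2% and 9.05% of all genes. None passed the fold at day 7 against day 2 (13% higher and 3.38% lower over all genes) or after reversal against day 7 (3.63% and 1.72%). Furin, a protease that cuts many precursors, was the 1 gene higher in reversed UUO than in sham (2.17, 1.20 to 4.38), with 0 lower, against 13.7% and 5.13%. Casp1, which encodes the caspase that cleaves both precursors, was 86.7, 61.2, 63.7 and 49.6 CPM in phagocytes in the order of groups, and Nlrp3, an inflammasome sensor, was 27.6, 32.1, 25.3 and 35.0 CPM. The list medians were 0.37, 0.08, 0.08 and 0.43.

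Signal relay and feedback genes numbered 10, all with enough UMIs. At day 2, 3 were higher than in sham and 0 lower: Socs3, a feedback inhibitor of cytokine receptors (8.03, 4.07 to 18.6), Tnfaip3 (4.22, 0.741 to 168) and Nfkbia (2.26, 1.73 to 3.00), both feedback inhibitors of NF-kB. Over all genes 13.2% were higher and 9.05% lower. None passed the fold between day 2 and day 7 (13% and 3.38% over all genes) or between day 7 and reversed UUO (3.63% and 1.72%). In reversed UUO against sham, 4 were higher: Tnfaip3 (10.8, 1.91 to 427), Socs3 (7.47, 3.78 to 17.3), Nfkbiz (3.70, 2.15 to 6.96) and Nfkbia (2.63, 2.01 to 3.50). Irak3, a brake on interleukin 1 receptor signalling, was the 1 lower gene (0.462, 0.184 to 1.49), against 13.7% higher and 5.13% lower over all genes. The list medians were 0.33, −0.11, 0.09 and 0.13.

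The list of 14 other cytokines and family genes had few members with enough UMIs in sham comparisons. Osm, a cytokine of the interleukin 6 family, was the 1 of 4 higher at day 2 (6.81, 2.32 to 33.2) and the 1 of 6 higher in reversed UUO than in sham (5.21, 1.77 to 25.4), with 0 lower in both, against 13.2% and 9.05% of all genes at day 2 and 13.7% and 5.13% after reversal. At day 7 against day 2, 5 of 9 were higher and Osm was lower (0.385, 0.340 to 0.436), against 13% and 3.38%. Il12b, a subunit of interleukins 12 and 23, was the largest by fold (51.5, 9.09 to 2046, from 1 UMI at day 2), followed by Il1rl1, the interleukin 33 receptor (7.24, 3.97 to 14.7), and Il33 (4.64, 2.04 to 13.03). Fibroblast or mural markers in the same phagocytes summed to 25.7 CPM at day 2 and 201 at day 7, and their part in the Il33 ratio was not tested. From day 7 to reversed UUO, Il12b (2.28, 1.75 to 2.97) and Il1f9 (2.27, 1.07 to 4.68) were higher and Il1f6 was lower (0.213, 0.0761 to 0.480), of 10 genes, against 3.63% and 1.72% over all genes. Il33 stood at 350 CPM in day 7 fibroblasts or mural cells, and Il1f6 at 226 CPM in day 7 tubule epithelium of no stated segment. The medians were −0.26, 1.22, 0.08 and 0.16. Clcf1, and after reversal also Il33, had 0 sham UMIs and lay under the floor, and without them the medians against sham were −0.51 at day 2 and 0.50 after reversal, over 3 and 4 genes.

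The genes whose levels tracked each member most closely over 37 sums of a class in a library, among 12466 genes, are given as a description, since the sums of a library share its depth and free RNA. For Il1b they were Ccl6 (Pearson r = 0.956), Wfdc17 (0.955) and Ncf1 (0.936), and for Il1rn they were Cxcl2 (0.902), Clec4n (0.891) and Il1b (0.885). Tnf was closest to Slc36a3os (0.910), Treml2 (0.906) and Cd101 (0.903). Il18 was closest to Zfp385a (0.835), Igsf6 (0.820) and Nckap1l (0.813). Tnfsf9 was closest to Slc11a1 (0.830), Vrk1 (0.767) and Cd80 (0.764), and Il18bp, the least tightly tracked, to Ltc4s (0.780), Pgm1 (0.675) and Usp12 (0.646).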

How the data were processed

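The authors deposited, for each of the 4 droplet libraries, a raw UMI count matrix of genes by cell barcodes, and for 1 plate experiment a table of read counts per well. The submitters' processing notes name Cell Ranger and STAR, with the builds GRCm38 and mm10. Their roles and versions, and how cells were called, are not given in the sources used here. The counts were used as deposited, with no normalization by the authors.

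Barcodes under 200 detected genes, or with mitochondrial UMIs above 50%, were removed. A cell joined the class with the highest share of its markers detected, at 40% or more and with at least 3 markers, from 21 lists. It was left out as mixed when another lineage reached 85% of that share. UMIs were summed per class and library. Levels are CPM with exact Poisson intervals, shares have exact Clopper-Pearson intervals, and ratios have exact conditional binomial intervals, all at 95%. A zero was set to a floor of 3 counts for bounds. A 2-fold difference was called among genes with at least 30 summed UMIs, with no test, since each group had 1 library. Likeness was Pearson's r of log2(CPM + 1) over classes of at least 30 cells. The intervals cover counting error only.

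The genes named are the 9 members, up to 4 genes per pathway list, the largest by fold, and the 3 genes most like each member with at least 200 UMIs. Receptor levels by class, Casp1, Nlrp3, Il33 and Il1f6 fall outside that rule and were chosen after their values were seen. The members, marker lists, pathway lists and tests were chosen with earlier results of these data known, and the gate limits, class contrasts, motif list and the look at Il1f6 were set after cells had been seen. Doublets were treated by the mixed rule. Scrublet's automatic threshold marked 0, 8, 2 and 25 cells, and an alternative removed the top scores. Scripts were checked on simulated data. TMM factors came from edgeR 4.0.16, sums and intervals from scipy 1.17.1 and numpy 2.4.6 under Python 3.11.15, and tables, doublet scores and figures from pandas 2.3.3, scanpy 1.11.5 and matplotlib 3.10.9.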

Additional observations from a re-analysis of the deposited data

Results flagged for a closer look

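In 7 pairings of classes a member stood on opposite sides of 1 in phagocytes and in another class under the same comparison, with both intervals on their own side of 1. None of these differences between classes was tested. For Il18bp, day 2 over sham was 8.32 in proximal tubule and 0.254 in phagocytes. Without 1 sham phagocyte the phagocyte ratio was 0.423 (0.132 to 2.16), so its interval then spanned 1. For Il1b, reversed over day 7 was 1.31 in phagocytes, 0.558 in endothelium, 0.355 in proximal tubule, 0.344 in T cells and 0.332 in fibroblasts or mural cells. At day 7 the Il1b level was 58.1 CPM in proximal tubule, 67.3 in T cells and 77.0 in endothelium. The whole libraries held Il1b at 353 CPM at day 7 and 185 after reversal. Endothelium was taken above as a class that should lack the gene. Free RNA, estimated from tubule markers, was 34.4% of endothelial UMIs at day 7 and 17.3% after reversal. For proximal tubule, macrophage markers were used in place of tubule markers, and the estimates were 13.02% and 11.996%, so they are not the same measure. From tubule markers the estimates were 14.6% and 14.3% in T cells. In fibroblasts or mural cells they were 12.8% and 13.5%. The part of free RNA in the Il1b and Il1rn ratios was not tested. For Il1rn, day 7 over day 2 was 3.33 in endothelium (1.03 to 17.1) and 0.772 in phagocytes. Reversed over day 7 was 1.38 in phagocytes and 0.406 in endothelium (0.176 to 0.861). Endothelium held 3 Il1rn UMIs at day 2, 28 at day 7 and 10 after reversal. Of the 28 day 7 endothelial Il1rn UMIs, 12 were in 1 cell, which also held 133 Il1f6 UMIs and 7 of the tubule marker Epcam. Both endothelial ratios include that cell and were not recomputed without it, so their side of 1 is not secure.

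The plate experiment (Smart-seq2, full-length cDNA read from single wells) was not part of any comparison, because no time point per well is used here. It held 768 wells, 760 of them with at least 500 genes, and a median of 95274 reads per well. Reads were found for Il1a (1226), Il1b (79995), Il1rn (7280), Tnf (9762), Il10 (28), Il18 (8351), Il18bp (3843) and Tnfsf9 (8062), while Il6 had 1 read and reached 10 reads in 0 of the 760 wells. Il1b had at least 10 reads in 144 wells (18.9%), Tnfsf9 in 45, Il18 in 43, Tnf in 31, Il18bp in 20, Il1rn in 14, Il1a in 2 and Il10 in 1.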

How the results depend on the processing

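The 32 ratios of members in phagocytes were recomputed under 15 alternatives. No ratio past the 2-fold limit changed direction. In all, 455 values moved by less than their counting interval and 25 moved by more. Of the 25, 9 came from thinning to 1000 UMIs and 8 from macrophage-gated cells alone. The minimum of 1 UMI left these ratios unchanged by construction, so its 32 values among the 455 could not move. Wide intervals, such as 2.56 to 568 for Il1rn at day 2 over sham, also leave room for large moves within them. Counts of members at least 2-fold higher or lower differed from the reported ones as follows, given where they moved by over 1.5 times and, for thinning and macrophage-gated cells, in full. With thinning, and with the minimum of 30 UMIs set before it, higher members were 1 instead of 2 for day 2 over sham and 1 instead of 4 for reversed over sham, and lower members were 2 instead of 0 for day 7 over day 2, 2 for reversed over day 7 and 1 for reversed over sham. Higher members for reversed over day 7 were 2 instead of 3, without Tnf (log2 0.28). Members highest in phagocytes in sham were then 3 instead of 5. With each cell counted equally, higher members were 2 instead of 1 for day 7 over day 2, and lower members were 3 there, 1 for reversed over day 7 and 1 for reversed over sham. Lower members for day 7 over day 2 were 1 with free RNA subtracted, 2 with TMM factors, 2 with no mixed rule, 1 in macrophage-gated cells and 1 without the highest cell. Lower members for reversed over day 7 were 1 at a mitochondrial limit of 20%, 1 with TMM factors and 2 without the highest cell. Without the highest cell of the first library alone, higher members for reversed over day 7 were 1 instead of 3, and lower members were 2 there and 2 for day 7 over day 2. In macrophage-gated cells, lower members for reversed over sham were 1. Higher members were 3 instead of 2 for day 2 over sham, without Il1b (log2 0.78) and with Tnf and Tnfsf9, and 3 instead of 4 for reversed over sham, without Tnfsf9 (0.62). The cause of these moves was not tested. Shares over all genes are not given for these settings, so these counts are not read against other genes. The mixed-rule settings, macrophage-gated cells alone, the steps without the highest cell, those without floor genes and the tubule cells left out were chosen after seeing the data. Il1b for day 7 over day 2 had log2 ratios of 0.04 with all UMIs and −0.13 thinned, so its sign is not fixed. Sham phagocytes numbered 65, so sham ratios have wide intervals. No paired analysis was possible because each group had 1 library.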
